A study of Mus musculus with 89 samples.

Results

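The eotaxin genes Ccl11 and Ccl24, the receptor genes Ccr3 and Il5ra, the granule protein genes Epx and Prg2, and the lipoxygenase gene Alox15 were followed in mouse lung across 26 groups of challenge and nanoparticle exposure. These 7 genes of the 22911 measured were taken from every probe whose RefSeq accession belongs to one of the 7 symbols, 8 probes in all, so that all 7 were on the array. Il5ra had 2 probes, which were averaged, and each of the other genes had 1. Of the 8 probes, the second for Il5ra lay well above the local background in only 25 of the 89 samples, against 85 for the first.

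Eosinophils are granulocytes that enter the airways in allergic inflammation of the Th2 type. The eotaxins Ccl11 and Ccl24 are chemokines made by structural cells and macrophages, and they draw eosinophils through the receptor Ccr3. Interleukin 5, which acts through Il5ra, drives the production and survival of eosinophils, whose granules hold the peroxidase Epx and the major basic protein encoded by Prg2. Alox15 encodes an enzyme that oxygenates fatty acids, and in mouse it is known from macrophages as well as eosinophils.

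All animals were female BALB/c mice of 6 to 8 weeks that had been sensitized to ovalbumin (OVA) with the adjuvant Alum, also those of the control groups, so that no group stands for an untreated lung. They were challenged with PBS or with OVA by oropharyngeal aspiration on 4 consecutive days, without particles or together with core copper oxide (CuO), carboxylated CuO (CuO COOH), methylaminated CuO (CuO NH3) or PEGylated CuO (CuO PEG) at 2.5, 10 or 40 μg/day, and lung tissue was collected 24 h after the last exposure. The PBS controls comprised 7 samples and the OVA controls 8, CuO NH3 10 and CuO PEG 10 without OVA comprised 4 each, and the other 22 groups comprised 3 each. Each sample was a pool of 2 RNA preparations. The materials were dosed by mass of the whole particle, and the authors state that the doses therefore held different amounts of copper. In whole lung RNA, more cells of a type and more RNA per cell cannot be told apart.

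The 89 samples were hybridised to 46 arrays with 2 dyes, and between 46.7% and 68.8% of spots per sample and dye were well above background, with 0 saturated spots. The 6 lung epithelium markers were well above background in 89 of 89 samples. CuO and CuO COOH samples lay on slides 1 to 3 and CuO NH3 and CuO PEG samples on slides 4 to 6, each with part of both controls. Levels below are log2 intensities after quantile normalization with dye, slide and array position removed. Comparisons against the controls came from a limma fit with dye and array as terms, so that a log2 fold change there is mainly a difference between the samples sharing an array and need not equal the difference between the levels. P-values were adjusted by Benjamini-Hochberg over all 22911 genes, and calls needed both an adjusted p under 0.05 and a log2 fold change of more than 0.58 in either direction.

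How well each gene was measured differed. Ccl24 and Ccr3 were well above background in 89 of 89 samples, Alox15 in 87, Ccl11 and Il5ra in 85, Prg2 in 70 and Epx in 43. The Epx signal was above background in 1 of the 45 PBS-challenged samples and in 42 of the 44 OVA-challenged samples. Prg2 was above background in 26 of the 45 and in 44 of the 44. The values of these 2 genes without OVA therefore lie near the floor of the array, so folds against them are understated.

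RefSeq promoters (GRCm38.p6, 250 bases before the transcription start to 50 after it) were at hand for 3 of the 7 genes, and are printed to show which of them hold the short words bound by 2 kinds of transcription factor known in eosinophils. The words were AGATAA, known from GATA factors, and TTCNNNNGAA, known from STAT factors, and they were looked for on both strands; AGATAA was found in 11.2% of the 32851 promoters and TTCNNNNGAA in 6.95%. Each sequence is written along the strand of its gene, with the words found in capitals. The Ccr3 promoter lies at chr9:124021721-124022020 on the plus strand, the Il5ra promoter at chr6:106748988-106749287 on the minus strand and the Epx promoter at chr11:87875487-87875786 on the minus strand.
Ccr3: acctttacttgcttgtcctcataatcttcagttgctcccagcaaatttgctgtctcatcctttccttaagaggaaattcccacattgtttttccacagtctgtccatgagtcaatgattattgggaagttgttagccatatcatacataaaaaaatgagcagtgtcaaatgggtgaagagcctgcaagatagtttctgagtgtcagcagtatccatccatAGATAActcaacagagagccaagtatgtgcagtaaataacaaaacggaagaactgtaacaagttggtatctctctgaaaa
Il5ra: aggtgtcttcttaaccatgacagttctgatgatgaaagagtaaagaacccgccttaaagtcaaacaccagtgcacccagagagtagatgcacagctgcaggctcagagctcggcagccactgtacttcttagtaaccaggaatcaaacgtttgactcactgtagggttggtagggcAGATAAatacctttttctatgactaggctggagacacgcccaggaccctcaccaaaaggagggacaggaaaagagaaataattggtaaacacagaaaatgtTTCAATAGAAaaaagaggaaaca
Epx: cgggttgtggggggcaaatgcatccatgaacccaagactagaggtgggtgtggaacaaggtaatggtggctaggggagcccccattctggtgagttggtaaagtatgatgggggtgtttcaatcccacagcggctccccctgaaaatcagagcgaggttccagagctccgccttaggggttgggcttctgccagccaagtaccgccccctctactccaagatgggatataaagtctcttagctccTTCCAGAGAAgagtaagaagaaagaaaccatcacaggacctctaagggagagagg
Ccr3 holds AGATAA at -30 to -25 from the start, Il5ra holds AGATAA at -74 to -69 and TTCAATAGAA at 28 to 37, and Epx holds TTCCAGAGAA at -5 to 5. A word in a promoter is not a bound site.

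Challenge with OVA alone raised both eotaxins, both granule proteins and Alox15. Ccl24 was raised by 4.25 on the log2 scale and Ccl11 by 2.07, and 5 of the 7 genes were called against 5.22% of all genes in this comparison, all 5 of them higher (3.71% of all genes). All 8 OVA samples lay above all 7 PBS samples for 5 genes, namely Ccl11, Ccl24, Ccr3, Prg2 and Alox15, which was so for 9.09% of all genes.

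The eotaxin levels of the 2 control groups were far apart. In the PBS controls Ccl24, also known as eotaxin-2, ranged from 7.67 to 8.42 with a median of 7.89, and in the OVA controls from 12.21 to 13.49 with a median of 12.71. The log2 fold change of Ccl24 was 4.25 (SE 0.35, limma adjusted p = 1.45e-08). Ccl11, eotaxin-1, ranged from 6.81 to 7.37 (median 7.03) without OVA and from 9.37 to 10.15 (median 9.66) with it, and its log2 fold change was 2.07 (SE 0.21, limma adjusted p = 2.72e-07). No sample of one group came within 1 log2 unit of the other group for either chemokine. Within slides 1 to 3 the log2 fold changes were 4.07 for Ccl24 and 2.33 for Ccl11, and within slides 4 to 6 they were 4.68 (limma adjusted p = 0.00144) and 1.39 (limma adjusted p = 0.126), with Ccl11 no longer called.

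The receptors moved less. Ccr3, the eotaxin receptor, lay between 6.77 and 7.56 in the PBS controls (median 7.18) and between 8.07 and 8.92 in the OVA controls (median 8.34), 2 ranges that did not overlap. Its log2 fold change of 0.62 (SE 0.26) was not called with array as a term (limma adjusted p = 0.138), and with dye, slide and position as terms it was 1.23 (SE 0.17, limma adjusted p = 1.26e-08) and was called, as were 6.51% of all genes in that fit. Il5ra, the specific chain of the interleukin 5 receptor, ranged from 6.25 to 6.51 without OVA and from 6.47 to 6.92 with it, and the 2 ranges overlapped. Its log2 fold change was 0.16 (95% interval -0.15 to 0.46, limma adjusted p = 0.617).

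The granule protein genes and Alox15 were higher with OVA. Prg2 ranged from 5.38 to 6.31 (median 6.19) in the PBS controls and from 7.70 to 8.87 (median 8.27) in the OVA controls, with a log2 fold change of 1.34 (SE 0.20, limma adjusted p = 5.06e-05), and of 2.21 with slide and position in place of array. Epx ranged from 5.36 to 5.90 and from 5.80 to 7.47, so that the lowest OVA sample lay among the PBS samples, and its log2 fold change was 0.74 (SE 0.20, limma adjusted p = 0.0168). With 0 of 7 PBS samples above background, the Epx level was at least 1.67-fold higher with OVA by the quantile-normalized values and at least 1.93-fold higher by values normalized with loess and Aquantile. Alox15 ranged from 5.82 to 6.69 (median 6.57) and from 7.85 to 8.92 (median 8.32), with a log2 fold change of 1.33 (SE 0.27, limma adjusted p = 0.00163).

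The calls for Epx and Alox15 rested on few samples. Without OVA replicate 3 or without PBS replicate 2, which shared an array, Epx came to 0.58 (limma adjusted p = 0.306) and Alox15 to 0.85 (limma adjusted p = 0.207). Without PBS replicate 5, Epx came to 0.68 (limma adjusted p = 0.05). Within slides 4 to 6, Prg2 was 1.25, Alox15 1.49 and Epx 0.88, none of them called (limma adjusted p = 0.0987, 0.109 and 0.323), whereas all 3 were called within slides 1 to 3.

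**Figure D1:**
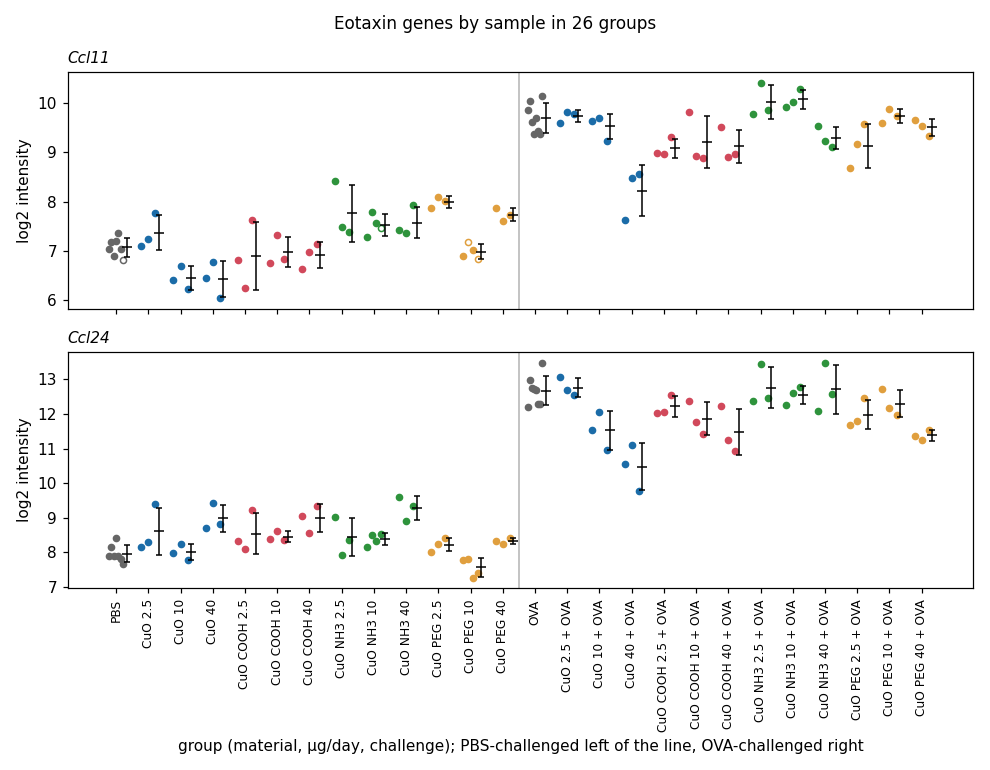
Levels of Ccl11 and Ccl24 in each of the 89 samples, by group. The vertical axis is the log2 intensity with dye, slide and array position removed, filled points were well above background, and bars give the mean ± SD. The 44 OVA-challenged samples of Ccl24 lie between 9.76 and 13.49, all above the 45 PBS-challenged ones, and the lowest OVA-challenged samples of both genes belong to CuO 40 + OVA.

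Challenge with OVA in mice that also received particles gave the same direction for nearly every gene and group. In these comparisons, each OVA-challenged group was set against the PBS-challenged group of the same material and dose, with dye, slide and array position as terms because the 2 groups seldom shared an array. Of the 84 tests of 7 genes in 12 materials and doses, 70 were called higher and 0 lower, where 3.02% of all genes were called higher over the same comparisons. With array as a term 31 of the 84 were called, against 2.04% over all genes.

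Ccl11, Prg2 and Alox15 were called in 12 of 12 comparisons. The log2 fold changes ran from 1.15 to 3.08 for Ccl11 (median 2.22), from 1.40 to 3.15 for Prg2 (median 2.11) and from 1.16 to 2.25 for Alox15 (median 1.69). Without CuO PEG 2.5 + OVA replicate 3, Ccl11 at CuO PEG 2.5 was 0.87 (limma adjusted p = 0.0998), not called. Prg2 there was 1.06 (limma adjusted p = 0.0725), also not called. Ccl24 ran from 1.49 to 4.74 (median 3.60) and was called in 11 of 12. The exception was CuO 40, where the log2 fold change of Ccl24 was 1.49 (SE 0.41, limma adjusted p = 0.0644), while the highest was that of CuO PEG 10 (4.74, SE 0.36, limma adjusted p = 4.76e-15).

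Epx was called in 11 of 12 comparisons, with log2 fold changes from 0.77 to 2.57 (median 1.38). It was not called at CuO PEG 2.5 (0.77, SE 0.29, limma adjusted p = 0.0657), though it was with the replicate number as a block (0.77, SE 0.26, limma adjusted p = 0.0397). It was also called there with array as a random block (0.89, limma adjusted p = 0.0284), with dye and array (2.06, limma adjusted p = 0.000481) and on the same 3 slides only (0.91, limma adjusted p = 0.0413). The highest was that of CuO NH3 10 (2.57, SE 0.29, limma adjusted p = 2.82e-09), where the level was at least 3.98-fold higher by loess and Aquantile and at least 4.23-fold by quantile normalization. The Epx call at CuO 40 (1.37, limma adjusted p = 0.0242) was lost without CuO 40 + OVA replicate 3 (1.26, limma adjusted p = 0.143) or CuO 40 replicate 3 (1.23, limma adjusted p = 0.166), and that at CuO COOH 40 without CuO COOH 40 + OVA replicate 1 (1.29, limma adjusted p = 0.0502). At CuO PEG 40 it was lost without CuO PEG 40 + OVA replicate 3 (1.03, limma adjusted p = 0.0889) or CuO PEG 40 replicate 1 (1.06, limma adjusted p = 0.0546). At CuO 2.5 it was lost without CuO 2.5 + OVA replicate 2 (1.08, limma adjusted p = 0.0513) or 3 (0.92, limma adjusted p = 0.0947). It was also lost there without CuO 2.5 replicate 1 (1.00, limma adjusted p = 0.0763). Prg2 at CuO 40 was 1.61 (limma adjusted p = 0.0809) without CuO 40 replicate 3, and Alox15 at CuO COOH 40 was 0.87 (limma adjusted p = 0.238) without CuO COOH 40 + OVA replicate 1.

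Ccr3 was called in 10 of 12 comparisons, from 0.66 to 1.98 (median 1.22). It was not called at CuO COOH 40 (0.71, SE 0.26, limma adjusted p = 0.112) and CuO PEG 40 (0.66, SE 0.27, limma adjusted p = 0.124), and at CuO 40 (1.16, SE 0.27, limma adjusted p = 0.0259) the call was lost without any 1 of its 6 samples, with log2 fold changes from 1.07 to 1.24. The Ccr3 call at CuO NH3 40 (0.96, SE 0.27, limma adjusted p = 0.0409) was lost in 7 of 10 other settings and without any 1 of 5 of its 6 samples (0.78 to 1.07). That at CuO COOH 10 (0.89) was lost in 3 of 10 other settings and without any 1 of 4 of its 6 samples (0.65 to 0.78). Il5ra was called in 2 of 12, at CuO NH3 2.5 (0.77, SE 0.14, limma adjusted p = 9.48e-06) and CuO PEG 10 (0.81, SE 0.13, limma adjusted p = 5.69e-07), and lay between -0.03 and 0.56 in the other 10. At 40 μg/day, Epx and Prg2 were called with all 4 materials, whereas Ccr3 was called with 2 of them and Il5ra with 0.

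**Figure D2:**
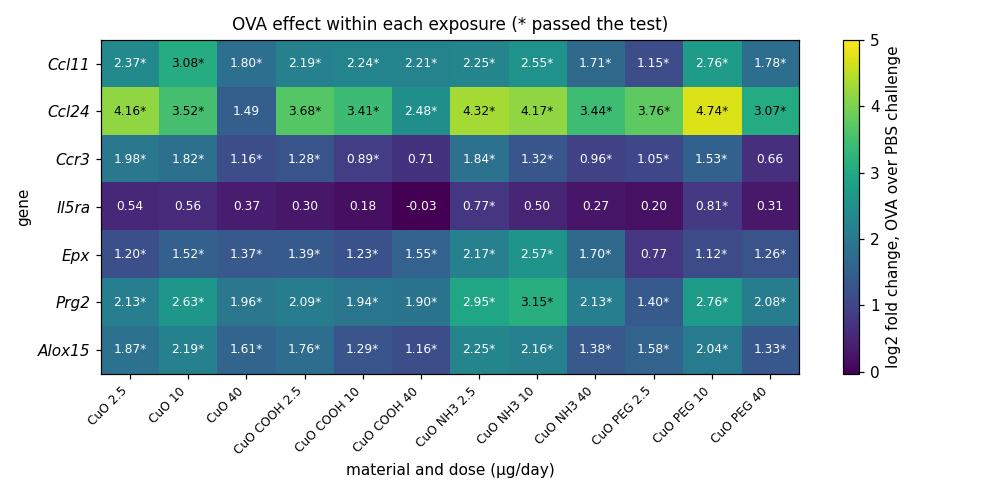
Heat map of the log2 fold change of OVA against PBS challenge within each material and dose (rows are the 7 genes, columns the 12 exposures), from the fit with dye, slide and array position. Stars mark calls: 70 of the 84 cells carry one, with Ccl11, Prg2 and Alox15 starred in 12 of 12 columns and Il5ra in 2.

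Across the 26 groups, the order of the mean levels followed the challenge for each of the 7 genes except Il5ra. For Il5ra, CuO COOH 40 + OVA ranked 20 of 26 and the PBS controls 12. The 44 OVA-challenged samples lay above the highest of the 45 PBS-challenged samples without exception for Ccl24 and Prg2, all but 1 for Ccl11 and Alox15, all but 4 for Ccr3 and Epx, and all but 19 for Il5ra. Between groups next to each other in the order of means, the samples overlapped in most cases: of 25 neighbouring pairs, 2 did not overlap for Ccl24, 2 for Ccr3, 1 each for Ccl11, Prg2 and Alox15, and 0 for Epx and Il5ra. Neither of these counts was made over all genes, so how common such separation is on the array is not known.

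For Ccl11 the PBS-challenged groups ran from 6.42 ± 0.37 (SD, n = 3) at CuO 40 to 7.99 ± 0.12 (SD, n = 3) at CuO PEG 2.5, around the PBS controls at 7.07 ± 0.19 (SD, n = 7). The OVA-challenged groups ran from 8.22 ± 0.52 (SD, n = 3) at CuO 40 + OVA to 10.08 ± 0.19 (SD, n = 3) at CuO NH3 10 + OVA, around the OVA controls at 9.70 ± 0.30 (SD, n = 8). The samples of CuO 40 + OVA lay below those of the next higher group, CuO COOH 2.5 + OVA (9.09 ± 0.19, SD, n = 3), the 1 neighbouring pair of Ccl11 that did not overlap.

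For Ccl24 the PBS-challenged groups ran from 7.56 ± 0.27 (SD, n = 4) at CuO PEG 10 to 9.28 ± 0.36 (SD, n = 3) at CuO NH3 40. The OVA-challenged groups ran from 10.47 ± 0.67 (SD, n = 3) at CuO 40 + OVA over 11.38 ± 0.15 (SD, n = 3) at CuO PEG 40 + OVA and 11.47 ± 0.67 (SD, n = 3) at CuO COOH 40 + OVA to 12.76 ± 0.27 (SD, n = 3) at CuO 2.5 + OVA. The samples of CuO 40 + OVA (9.76 to 11.10) did not overlap those of its neighbours in the order of means, CuO PEG 40 + OVA and CuO NH3 40. They did overlap those of CuO COOH 40 + OVA (10.94 to 12.22) and CuO 10 + OVA (10.95 to 12.07), whose means were higher.

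For Ccr3 the group means ran from 6.48 at CuO 40 to 7.30 at CuO PEG 2.5 without OVA, and from 7.63 at CuO COOH 40 + OVA to 8.97 at CuO 2.5 + OVA. The next lowest OVA-challenged groups for Ccr3 were CuO 40 + OVA at 7.64 ± 0.14 (SD, n = 3) and CuO PEG 40 + OVA at 7.85 ± 0.16 (SD, n = 3), so that 3 of the 4 groups given 40 μg/day with OVA were at the bottom. For Il5ra the means ran from 5.95 at CuO 40 to 6.46 at CuO PEG 2.5 and from 6.25 at CuO COOH 40 + OVA to 6.89 at CuO PEG 10 + OVA, 2 ranges that overlapped.

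For Epx and Prg2 the highest OVA-challenged groups were CuO NH3 10 + OVA, at 8.20 ± 0.35 and 9.43 ± 0.56 (SD, n = 3), and CuO NH3 2.5 + OVA, at 7.82 ± 0.17 and 9.26 ± 0.08 (SD, n = 3). The lowest was CuO PEG 2.5 + OVA, at 6.28 ± 0.28 and 7.83 ± 0.46 (SD, n = 3). Without OVA the means of Prg2 ran from 5.90 to 6.71, highest at CuO NH3 40, and those of Epx, from 5.43 to 5.87, have no order, since 1 of the 45 samples was above background. The Alox15 means ran from 6.23 at CuO 10 to 6.78 at CuO PEG 2.5, and with OVA from 7.70 at CuO COOH 40 + OVA to 8.79 at CuO NH3 2.5 + OVA.

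**Figure D3:**
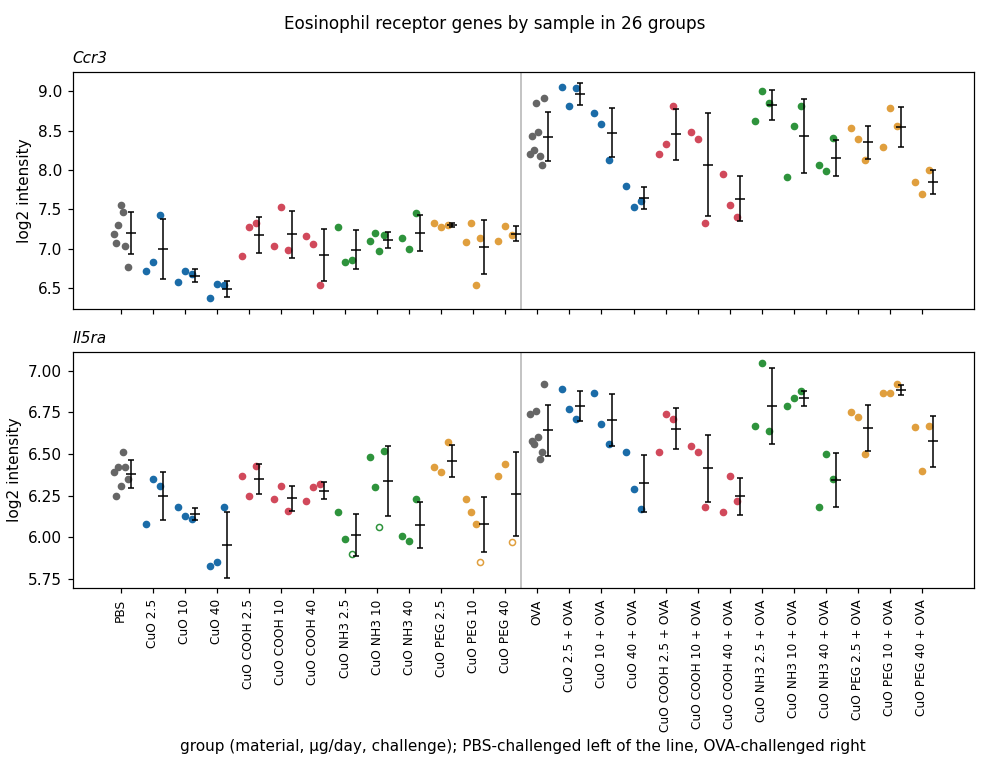
Levels of Ccr3 and Il5ra in each sample, by group. The vertical axis is the log2 intensity with dye, slide and array position removed, filled points were well above background, open ones were not, and bars give the mean ± SD. Ccr3 with OVA is lowest in the 40 μg/day groups of CuO, CuO COOH and CuO PEG, whose means lie at 7.64, 7.63 and 7.85, and the Il5ra samples of the 2 challenges overlap.

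The next comparison asked what the particles did in mice challenged with PBS. Of 84 tests, 2 were called, both higher and both with CuO NH3 at 40 μg/day, while 4.41% of the tests over all genes were called, so the share among these genes was not above that of the array. Ccl24 rose by 1.65 (SE 0.41, limma adjusted p = 0.00405) and Prg2 by 0.75 (SE 0.24, limma adjusted p = 0.0214) with CuO NH3 40, where 7.36% of all genes were called higher. The 3 samples of Ccl24 at CuO NH3 40 were 9.60, 8.89 and 9.35, each above the highest PBS control at 8.42, and the 3 of Prg2 were 6.55, 6.79 and 6.79, each above the highest PBS control at 6.31.

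Both calls depended on single samples. Without CuO NH3 40 replicate 1 or PBS replicate 5, which shared an array, Ccl24 was 1.58 (limma adjusted p = 0.133) and Prg2 0.61 (limma adjusted p = 0.352), and without PBS replicate 2, Prg2 was 0.66 (limma adjusted p = 0.0579). With dye, slide and position as terms the Ccl24 rise was 1.32 (limma adjusted p = 0.00122) and Prg2 was 0.69 (limma adjusted p = 0.059), no longer called.

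Ccl24 lay above the PBS controls at 40 μg/day with 2 other materials as well. Its samples were 8.69, 9.43 and 8.81 with CuO and 9.06, 8.55 and 9.34 with CuO COOH, all above 8.42, whereas the 8.32, 8.24 and 8.40 with CuO PEG lay within the range of the controls. The log2 fold changes were 1.37 with CuO (limma adjusted p = 0.122) and 1.62 with CuO COOH (limma adjusted p = 0.0627), neither called. With slide and position as terms they were 1.02 (limma adjusted p = 0.0159) and 1.03 (limma adjusted p = 0.0238), both called.

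The Ccr3 and Ccl11 levels of core CuO at 40 μg/day lay below those of the PBS controls. The 3 Ccr3 samples lay between 6.37 and 6.55, below the lowest PBS control at 6.77, and the log2 fold change was -1.16 (limma adjusted p = 0.0717), and -0.71 (limma adjusted p = 0.0115) with slide and position as terms, where it was called. Ccl11 lay between 6.04 and 6.78, below the lowest control at 6.81. Its log2 fold change was -0.19 (limma adjusted p = 0.839), not called, and -0.65 (limma adjusted p = 0.0479) with slide and position, the 1 of 11 settings that called it, with values from -0.65 to 0.40. In that fit, 5 of the 84 tests were called, 3 higher and 2 lower, against 4.4% of the tests over all genes.

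In OVA-challenged mice, the granule protein genes were higher with CuO NH3 at the 2 lower doses. Of 84 tests against the OVA controls, 5 were called, all higher, against 1.20% of the tests over all genes (0.68% higher). These were Epx and Prg2 with CuO NH3 at 2.5 and at 10 μg/day, and Prg2 with core CuO at 10 μg/day. The eotaxins, both receptors and Alox15 had no call in the 12 comparisons. That of CuO 2.5 + OVA rested on replicate 2 alone, since replicates 1 and 3 had no other sample on their arrays. With CuO 40 + OVA, Alox15 was called lower with array as a random block (-0.61) and dye only (-0.65). It was also called lower with CuO COOH 40 + OVA with dye only (-0.65). With CuO NH3 2.5 + OVA it was called higher with array as a random block (0.62) and the replicate block (0.66). Il5ra with CuO COOH 40 + OVA was -0.56 (limma adjusted p = 0.0488), short of the fold threshold. It was called there with loess and Aquantile (-0.61).

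Epx, the eosinophil peroxidase gene, was 7.69, 8.02 and 7.76 in the 3 samples of CuO NH3 2.5 + OVA and 7.81, 8.48 and 8.32 in those of CuO NH3 10 + OVA, all above the highest OVA control at 7.47. The log2 fold changes were 1.71 (SE 0.23, limma adjusted p = 0.00134) and 2.39 (SE 0.26, limma adjusted p = 4.65e-05), in comparisons where 0.489% and 1.38% of all genes were called higher. At 40 μg/day the samples were 8.05, 7.00 and 7.66, one of them inside the range of the controls, and the log2 fold change was 0.83 (SE 0.26, limma adjusted p = 0.0586). The fit with slide and position gave 1.22, 1.60 and 0.97, all called (limma adjusted p = 0.00418, 9.56e-05 and 0.00408).

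Prg2, the major basic protein gene, was 9.19, 9.25 and 9.35 in CuO NH3 2.5 + OVA and 8.79, 9.78 and 9.73 in CuO NH3 10 + OVA, against at most 8.87 in the OVA controls, so that 1 of the 6 samples lay inside the control range. The log2 fold changes were 1.23 (SE 0.23, limma adjusted p = 0.00969) and 1.55 (SE 0.26, limma adjusted p = 0.00217). At 40 μg/day the samples were 9.03, 8.27 and 9.21 and the log2 fold change was 0.54 (limma adjusted p = 0.235). With slides 4 to 6 alone, which hold all CuO NH3 samples, Epx was 1.68 and 2.36 and Prg2 1.25 and 1.56 at 2.5 and 10 μg/day, all called.

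At 2.5 μg/day both calls rested on 1 array. Without CuO NH3 2.5 + OVA replicate 2 or without OVA replicate 6, Epx was 1.05 (limma adjusted p = 0.61) and Prg2 0.82 (limma adjusted p = 0.861). At 10 μg/day Prg2 was 1.80 (SE 0.50, limma adjusted p = 0.308) without CuO NH3 10 + OVA replicate 3 or without OVA replicate 7, and Epx was called without any 1 sample. With every array scaled to its 75th percentile in place of quantile normalization, no test of the 84 was called, and Epx at CuO NH3 10 + OVA was 1.50 (SE 0.79, limma adjusted p = 0.887).

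Prg2 with CuO 10 + OVA rose by 1.29 (SE 0.28, limma adjusted p = 0.042), where 0.21% of all genes were called higher, but its samples lay between 7.95 and 9.07 and overlapped the OVA controls. With slide and position as terms its log2 fold change was 0.30 (limma adjusted p = 0.778). The call was lost when any 1 of 5 samples was left out, namely CuO 10 + OVA replicates 1 (1.40, limma adjusted p = 0.154) and 2 (0.83, limma adjusted p = 0.418) and OVA replicates 1 (1.11, limma adjusted p = 0.316), 4 (1.19, limma adjusted p = 0.23) and 7 (1.30, limma adjusted p = 0.0502).

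**Figure D4:**
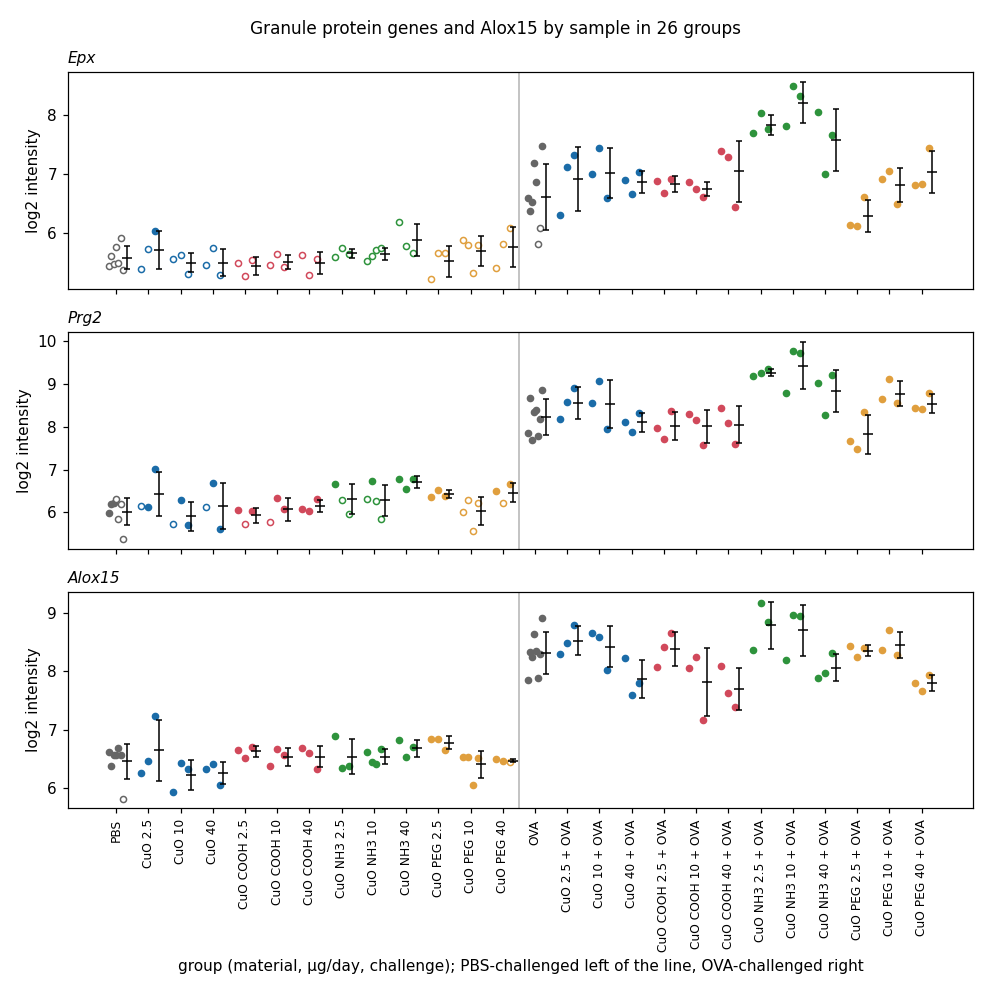
Levels of Epx, Prg2 and Alox15 in each sample, by group. The vertical axis is the log2 intensity with dye, slide and array position removed, filled points were well above background, open ones were not, and bars give the mean ± SD. Most Epx points without OVA are open, 1 of 45 being above background, and the CuO NH3 + OVA groups at 2.5 and 10 μg/day are the highest for Epx and Prg2.

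At 40 μg/day the eotaxins and Ccr3 had no call against the OVA controls with array as a term, and whether they were called lower depended on the batch terms. With CuO 40 + OVA the Ccl24 samples were 10.56, 11.10 and 9.76, all below the lowest OVA control at 12.21, and the Ccl11 samples were 7.62, 8.48 and 8.56, all below the lowest control at 9.37. With array as a term the log2 fold changes were -0.78 for Ccl24 (limma adjusted p = 0.651) and -0.34 for Ccl11 (limma adjusted p = 0.788), and neither was called. They were -2.21 (limma adjusted p = 9.12e-06) and -1.47 (limma adjusted p = 8.24e-05) with slide and position, and both were called.

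With CuO 40 + OVA the Ccr3 samples of 7.80, 7.53 and 7.60 lay below the lowest OVA control at 8.07. Its log2 fold change was -0.41 with array as a term, not called, and -0.78 (limma adjusted p = 0.0225) with slide and position. With CuO COOH 40 + OVA, Ccl24 was 12.22, 11.25 and 10.94 and gave -0.54 with array and -1.21 (limma adjusted p = 0.00803) with slide and position, and Ccr3 gave -0.61 and -0.79 (limma adjusted p = 0.00962). With CuO PEG 40 + OVA, Ccl24 was 11.37, 11.24 and 11.54, all below the controls, and gave -0.72 and -1.29 (limma adjusted p = 0.0257). Ccr3 gave -0.01 and -0.58 there, neither called. Ccl11 was called by neither fit with these 2 materials, at -0.21 and -0.57 for CuO COOH 40 + OVA (samples 9.51, 8.90 and 8.97) and at 0.26 and -0.19 for CuO PEG 40 + OVA (samples 9.66, 9.53 and 9.33). In all, 11 of the 84 tests were called by the fit with slide and position, 5 higher and 6 lower, against 1.51% of the tests over all genes.

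With CuO NH3 40 + OVA, the Ccl24 samples of 12.09, 13.47 and 12.58 were spread over the range of the controls, with 1 just below it. The Ccl11 samples were 9.54, 9.23 and 9.10 against a lowest control of 9.37, and the Ccr3 samples 8.06, 7.99 and 8.41 against 8.07. Ccl11 gave -0.09 with array and -0.41 with slide and position, neither called, but it was called in 3 of 11 settings, at -1.15 with array as a random block, -1.26 with dye only and -2.18 with the replicate block. Ccr3 gave -0.19 and -0.27, neither called. At the lower doses of core CuO, Ccl24 was 13.06, 12.69 and 12.54 for CuO 2.5 + OVA, inside the range of the controls, and 11.55, 12.07 and 10.95 for CuO 10 + OVA, below it.

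**Figure D5:**
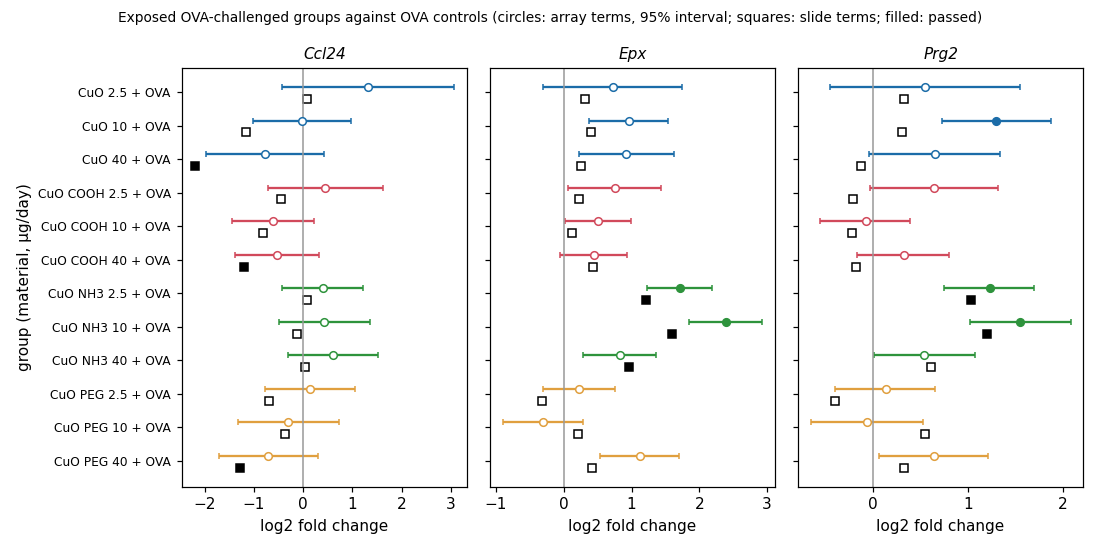
Log2 fold change of Ccl24, Epx and Prg2 in the exposed OVA-challenged groups against the OVA controls, by material and dose. Circles are the fit with dye and array, with 95% intervals, squares the fit with dye, slide and position, and filled symbols were called. Epx and Prg2 are called with CuO NH3 2.5 and 10 by both fits, and Ccl24 at 40 μg/day of CuO, CuO COOH and CuO PEG only by the fit with slide and position.

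Whether a particle had another effect with OVA than with PBS was tested by the difference of the 2 effects. Of 84 tests, 2 were called, against 0.346% of the tests over all genes, both at CuO NH3 10, where 0.0393% of all genes were called higher. The effect of CuO NH3 10 on Epx was higher with OVA by 2.22 on the log2 scale (SE 0.32, limma adjusted p = 0.00459) and that on Prg2 by 1.63 (SE 0.31, limma adjusted p = 0.0379). Without OVA, Epx was above background in 0 of the 4 samples of CuO NH3 10 and 0 of the 7 PBS controls, so that an effect there could not have been seen at these levels, and the Epx value does not show that the effect depends on the challenge. Prg2 without OVA ranged from 5.84 to 6.73 with CuO NH3 10, near the background as well.

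The Epx difference was 1.53 (limma adjusted p = 0.00956) with slide and position as terms and was called, but it was 2.09 (SE 0.41, limma adjusted p = 0.272) on slides 4 to 6 alone. It was 1.97 (limma adjusted p = 0.152) without CuO NH3 10 replicate 2 and 2.08 (limma adjusted p = 0.103) without CuO NH3 10 replicate 4. The Prg2 difference was 0.94 (limma adjusted p = 0.365) with slide and position, and it was lost without any 1 of 9 samples, among them CuO NH3 10 replicate 4 (1.43, limma adjusted p = 0.234) and PBS replicate 7 (1.63, limma adjusted p = 0.0557).

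For Ccl24 with core CuO and CuO COOH at 40 μg/day, the difference of effects was below 0 but was called only with other batch terms. The difference of effects was -2.15 for core CuO (SE 0.65, limma adjusted p = 0.145) and -2.16 for CuO COOH (limma adjusted p = 0.164), neither called. With slide and position as terms it was -3.23 (limma adjusted p = 4.65e-07) and -2.24 (limma adjusted p = 0.000931), both called, in a fit that called 1.56% of the tests over all genes. For CuO NH3 and CuO PEG at 40 μg/day it was -1.05 (limma adjusted p = 0.474) and -1.42 (limma adjusted p = 1), called in 0 of 11 settings.

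The surface modifications were compared at the same dose and challenge, each modified material against core CuO, with dye, slide and array position as terms. Of 126 tests, 2 were called, against 0.501% of the tests over all genes. CuO PEG 40 had more Ccl11 than CuO 40 without OVA, with samples between 7.60 and 7.86 against 6.04 to 6.78 and a log2 difference of 1.31 (SE 0.34, limma adjusted p = 0.0066), where 4.39% of all genes were called. CuO NH3 40 + OVA had more Ccl24 than CuO 40 + OVA, with a log2 difference of 2.24 (SE 0.45, limma adjusted p = 0.0228), where 0.384% of all genes were called, and the 2 groups did not overlap.

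Core CuO and these 2 materials lay on different slides, so that material and slide are tied through the shared controls alone. With array as a term, Ccl11 differed by 0.47 (limma adjusted p = 0.659), and it was reversed to -0.36 with dye as the only batch term. The Ccl24 difference was 1.38 with array, not called, and was lost without CuO 40 + OVA replicate 1 (2.30, limma adjusted p = 0.0878) or 3 (1.83, limma adjusted p = 0.132) and without CuO NH3 40 + OVA replicate 2 (1.77, limma adjusted p = 0.0595) or 3 (2.33, limma adjusted p = 0.0776). Epx did not pass between CuO NH3 10 + OVA and CuO 10 + OVA (1.20, SE 0.35, limma adjusted p = 0.483), but with the replicate number as a block it was 0.99 (limma adjusted p = 0.00367). It was also called with array as a random block (1.03, limma adjusted p = 0.013) and with dye only (0.99, limma adjusted p = 0.0167). Ccl11 turned from 0.55 to -1.14 (limma adjusted p = 0.00749) in the same pair with the replicate block. Between CuO COOH and core CuO, which shared slides, 0 of the 42 tests of these genes were called on those slides alone. In the fit of all slides, 0% to 0.323% of all genes were called in these comparisons. So few calls are therefore not particular to these genes.

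Between 40 and 2.5 μg/day of the same material, 5 of 56 tests were called, all lower, against 4.16% of the tests over all genes (1.89% lower), with dye, slide and position as terms. With OVA and core CuO, Ccl24 was lower at 40 μg/day by a log2 fold change of -2.29 (SE 0.38, limma adjusted p = 1.49e-05), Ccl11 by -1.51 (SE 0.29, limma adjusted p = 0.00015) and Ccr3 by -1.33 (SE 0.26, limma adjusted p = 0.000166), where 2.01% of all genes were called lower. The 3 Ccr3 samples were 9.06, 8.81 and 9.04 at 2.5 μg/day and 7.80, 7.53 and 7.60 at 40 μg/day, without overlap. With array as a term the same 3 values were -2.10, -0.74 and -0.47, none called, and that fit rested on 1 sample of CuO 2.5 + OVA, since its other 2 samples were alone on their arrays.

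The other 2 dose calls were smaller. Ccl11 without OVA was lower at CuO 40 than at CuO 2.5 by -0.94 (SE 0.29, limma adjusted p = 0.0165; 2.51% of all genes lower), which was -0.64 (limma adjusted p = 0.229) without CuO 2.5 replicate 3 and -0.72 (limma adjusted p = 0.132) without CuO 40 replicate 3. Ccr3 with OVA was lower at CuO COOH 40 than at CuO COOH 2.5 by -0.82 (SE 0.26, limma adjusted p = 0.0305; 1.41% of all genes lower), and was not called without any 1 of 4 of the 6 samples, at -0.63 to -0.91. The granule genes, Il5ra and Alox15 had no call between the doses in this fit. Between CuO NH3 40 + OVA and CuO NH3 2.5 + OVA, Alox15 was -0.73 and Ccr3 -0.67 (limma adjusted p = 0.0712 and 0.0889). Both were called lower with array as a random block, the replicate block, dye only and the same 3 slides. The values were -0.85 to -0.92 for Alox15 and -0.78 to -0.81 for Ccr3. Ccl11 was called lower on the same 3 slides (-0.83). Without OVA, CuO NH3 40 against 2.5 was called higher for Prg2 with dye and array (0.91) and for Ccl24 on the same 3 slides (0.86).

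Other genes of the eosinophil pathway were counted in 7 lists, of which 13 of the 55 genes measured were higher and 0 lower with OVA alone, against 3.71% and 1.5% of all genes. Among 4 other chemokines listed as Ccr3 ligands, Ccl8 (5.91) and Ccl7 (3.52) were higher, with a list median of 2.15 against -0.02 for all genes. Of 9 lineage and surface genes 3 were higher, Cebpe (2.03), a transcription factor of granule formation, Adgre1 (1.01) and Pirb (0.76), and of 5 relatives of the granule proteins 1, the ribonuclease Ear10 (1.14). Of 7 growth cytokines and their receptors Csf2rb2 (1.32) and Csf2rb (0.81) were higher. Csf2rb encodes the shared beta chain of the interleukin 3 and 5 receptors, and Csf2rb2 a beta chain of the interleukin 3 receptor.

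Of 11 Th2 cytokines, alarmins and their signalling genes Il33 (1.41) and Il4 (1.05) were higher. Of 12 lipoxygenase and leukotriene genes, Ltb4r1 (1.16), a leukotriene B4 receptor, and Alox5ap (0.89), the partner of 5-lipoxygenase, were higher, and of 7 adhesion genes Selp (1.20), which encodes P-selectin. These values are log2 fold changes of called genes.

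In CuO NH3 10 + OVA against OVA, where Epx and Prg2 were highest, 3 of the 55 genes were higher and 0 lower, against 1.38% and 1.12% of all genes. They were Ccl7 (2.96), Adgre1 (0.73) and Alox5ap (0.69), and 0 of the 5 granule relatives were called. At 40 μg/day without OVA, the 55 genes held 9 higher and 11 lower with CuO, 4 and 11 with CuO COOH, 9 and 10 with CuO NH3, and 3 and 5 with CuO PEG. Of all genes, 7.82% were higher and 6.23% lower with CuO, and 5.97% and 4.3% with CuO COOH. The shares were 7.36% and 5.87% with CuO NH3, and 1.67% and 0.511% with CuO PEG. Ccl7 was higher with all 4 materials (5.53, 4.75, 4.57 and 4.40 for CuO, CuO COOH, CuO NH3 and CuO PEG), and Siglecf, a surface marker of mouse eosinophils and alveolar macrophages, was lower with all 4 (-1.44, -0.82, -1.03 and -1.15). Ccl5, in the list of Ccl7, was lower with CuO, CuO COOH and CuO NH3 (-2.28, -1.45 and -2.01), Adgre4, in the list of Siglecf, was lower with the same 3 (-1.70, -1.11 and -1.09), and Adgre1 of that list was higher with CuO and CuO NH3 (1.05 and 0.93). The ribonuclease genes Ear1, Ear2 and Ear10 were lower with all 4 as well. With CuO 40 + OVA, Ccl7 was higher (3.11), Ccl5 was lower (-2.03) and Ear1, Ear2 and Ear10 were lower (-3.21, -3.29 and -2.84).

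Markers of other cells moved with some of these results. In OVA against PBS, where 3.71% of all genes were higher and 1.5% lower, 2 of 8 mast cell and basophil markers were higher (Mcpt8 2.03, Cpa3 0.66). So was 1 of 6 neutrophil markers (Retnlg). Of 4 fibroblast markers 2 were higher and 1 lower, and 1 of 3 monocyte markers was higher. Lower were 1 of 4 cavity macrophage and 1 of 6 lung epithelium markers. The median log2 fold change of the neutrophil markers was -0.29, and their summed intensity was 50900 to 66500 against 68800 to 92100. The median of the mast cell and basophil markers was 0.46, and their sum was 3520 to 4970 against 3530 to 5910. Of 6 alveolar macrophage markers, Chil3 (3.94) and Mrc1 (1.54) were higher and Fabp1 (-1.64) lower. In CuO NH3 10 + OVA against OVA, 1.38% of all genes were higher and 1.12% lower. There, 0 of 6 neutrophil and 0 of 8 mast cell and basophil markers were called, which is near those shares for lists this short. The summed neutrophil intensity was 82600 to 88300 against 50900 to 66500. The mast cell and basophil sum was 3540 to 4120 against 3520 to 4970. Among the alveolar macrophage markers Marco (-3.09) was lower and Mrc1 (0.86) higher. Lower too were 3 of 3 erythroid markers (median -1.79), and 1 of 4 fibroblast markers was higher.

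In CuO NH3 40 against PBS, where 7.36% of all genes were higher and 5.87% lower, 3 of 6 neutrophil markers were higher and 1 lower, 3 of 6 neutrophil precursor markers were higher, and 2 of 8 mast cell and basophil markers were lower (Kit and Cma1). Lower too were 3 of 6 alveolar macrophage, 2 of 2 endothelium and 3 of 3 erythroid markers (median -2.56), and of 4 fibroblast markers 3 were higher and 1 lower. In CuO 40 + OVA, 2 of 6 alveolar macrophage markers were lower than in the OVA controls (Fabp1 -2.46, Pparg -0.86), in a comparison where 0.607% of all genes were lower. The summed intensity of the 6 was 41900 to 45200 against 68300 to 224000, and it was 12300 to 20900 in the PBS controls. In the same comparison 2 of 3 erythroid markers (median -2.36) and 1 of 8 mast cell and basophil markers (Cma1) were lower. Of 4 fibroblast markers 1 was higher (Col3a1). The neutrophil markers had no call, with a median of 1.75 and a sum of 82100 to 123000 against 50900 to 66500. Such a sum adds linear intensities, so the brightest markers weigh most in it. The part of these cells in the values of Ccl24, Ccr3, Epx, Prg2 and Alox15 was not tested.

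The genes with group means most like those of each member over the 26 groups are given as a description, among 15466 genes well above background in at least 45 samples. For Ccl24 they were Tbxas1 (Pearson r = 0.987), F10 (0.98) and Cebpe (0.98), and for Ccl11 Slamf8 (0.971), Gata1 (0.966) and Batf3 (0.962). For Ccr3 they were F5 (0.975), P2rx1 (0.973) and Gata1 (0.973), and for Il5ra Lrmp (0.956), Slamf6 (0.952) and Bfsp2 (0.949). For Prg2 they were Mcoln2 (0.987), Cebpe (0.984) and Snx5 (0.978), for Epx Oit3 (0.963), Srgn (0.961) and Cd163 (0.957), and for Alox15 Cebpe (0.98), Pdlim4 (0.978) and Cd209e (0.978).

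Among the 7 genes themselves, the correlations over the 26 group means ran from 0.69 (Il5ra with Epx) to 0.97. The groups fall into 2 clusters by challenge, and within each cluster the genes went together less. Ccl11 and Ccl24 correlated at 0.93 over all groups, at 0.76 over the 13 OVA-challenged and at 0.02 over the 13 PBS-challenged groups. Within the OVA-challenged groups Epx followed Prg2 (0.88) more than it followed Ccr3 (0.16) or Ccl24 (0.34), and Ccr3 followed Alox15 (0.90). The points share slides and, in part, arrays, and no p is given.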

How the data were processed

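Pooled lung RNA of each sample was hybridised to 2-colour Agilent mouse arrays, and only the channel holding a sample's own RNA was read. The authors deposited the scanner output of Agilent Feature Extraction (version 12.0.2.2 in the file headers), from which the median foreground intensity, neither normalized nor background-subtracted, and the quality marks were used. The authors also deposited a table of log2 values per spot after quantile normalization, used here as an alternative. According to their methods, the authors adjusted with ComBat and fitted limma.

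From the intensities, log2 values were quantile normalized over the 89 samples, and 3671 control spots and outlier spots were left out. Replicate spots gave 56605 probes, and averaging the 32994 of them that carry a RefSeq gene gave 22911 genes. The software was R 4.3.3, limma 3.58.1 and the package data.table (version 1.17.8), and the scripts were tested on simulated data. All 26 groups entered each fit. Dye and array were terms for comparisons with the controls and for the difference of effects, and dye, slide and array position for the others. Groups and replicate numbers came from the sample labels, and 0 columns were left unused. Doses are given in μg/day as in the description of each sample. No source says that pools of a group came from separate experiments, and p-values measure only the spread between these samples. A fold bound set the bright group's mean against, per array, the higher of the dim probe's signal and the lowest signal well above background, and values across the 2 dyes are open to dye bias. The number of arrays limits the precision. Same-numbered samples deviated together in all 3 pairs of 7 of 63 comparisons, a pairing seen in the data and not stated by the labels.

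The 7 genes and the pathway lists were chosen with earlier results of these data known. Besides the 7, the genes named were the 3 with the highest correlation of group means with each, and at most 3 called members with the largest change per list and comparison. Ear1, Ear2, Ear10 and Siglecf follow the same rule, and the cell type markers named were called ones. Tpsab1 and Ly6g had no probe here. The alternatives were other batch terms, 75th percentile scaling, loess with Aquantile, normexp, the deposited table, a filter on dim probes, the slides apart, a replicate block and leaving out each sample.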

Additional observations from a re-analysis of the deposited data

Results flagged for a closer look

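Of the 28 sets of 1 gene in 1 group with 4 to 10 samples, 2 held a sample far from the others, where chance gives about 1 in 20. Alox15 in PBS replicate 7 was 5.82 on the log2 scale, the next of the 7 PBS controls being 6.38. Alox15 in CuO PEG 10 replicate 3 was 6.06, the next of the 4 samples being 6.51. The first of these values was not well above background and the second was.

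The effect of CuO NH3 10 differed between the challenges for 2 genes by a limma test of the difference itself. It was higher with OVA than with PBS by 2.22 on the log2 scale for Epx and by 1.63 for Prg2. For Epx, 0 of the 11 PBS-challenged samples of that test were above background, so the value does not show that the effect depends on the challenge. The Prg2 difference was 0.94 (limma adjusted p = 0.365) with slide and position and was lost in 7 of 10 other settings. All 3 samples of CuO NH3 10 + OVA lay above the OVA controls for Epx, and 2 of 3 did so for Prg2.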

How the results depend on the processing

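The counts of calls below are tests of the 7 genes. With OVA against PBS controls, 5 were called, 2 with scaling to the 75th percentile and 1 with slides 4 to 6 only, and 3 to 5 when 1 sample was left out. For exposed PBS-challenged groups, 2 were called, but 5 with dye, slide and position, 4 with loess and Aquantile and with dye only, 6 with array as a random block, 8 with the replicate block, 1 with normexp and with 75th percentile scaling, and 0 to 5 without 1 sample. For exposed OVA-challenged groups, 5 (all higher) became 11 with dye, slide and position (5 higher, 6 lower), 14 with array as a random block (6 and 8), 15 with dye only (5 and 10), 19 with the replicate block (6 and 13) and 0 with 75th percentile scaling, and 3 to 7 without 1 sample. Within exposures, 70 became 31 with dye and array, and 67 to 72 without 1 sample. For the difference of effects, 2 became 5 with array as a random block, 6 with the replicate block, and 0 with loess and Aquantile, with the same 3 slides and with 75th percentile scaling, and 0 to 4 without 1 sample. Between materials, 2 became 6 with array as a random block, 13 with the replicate block, 7 with dye only, 0 with dye and array and 1 with 75th percentile scaling, and 1 to 3 without 1 sample. Between doses, 5 became 1 with dye and array and 8 with the same 3 slides, and 4 to 6 without 1 sample. The cause of these shifts was not tested, beyond the fewer samples of the runs on part of the slides.

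Among the named calls, only Ccl11 in CuO PEG 40 against CuO 40 turned its direction, to -0.32 with array as a random block, -0.36 with the replicate block and -0.36 with dye only. In 16 other comparisons Ccl11 was not called but was called in the opposite direction by an alternative, in all 16 with the replicate block. Deviations of same-numbered samples correlated at -0.3 to 0.7 over 63 comparisons of 2 groups, so that the numbers do not pair the samples in general. In 7 comparisons of 3 pairs, every pair was over 0.1, and there the block changed only the calls of Epx and Ccl11 given in the report. Scaling to the 75th percentile moved the median of all genes by -0.37 to 0.67 in the exposed PBS-challenged groups, -0.36 to 0.80 in the exposed OVA-challenged groups and -0.65 to 0.65 in the difference of effects, and fold changes there include that shift. In 3 runs without 1 sample, 1 comparison could not be fitted. Epx and Prg2 without OVA are limited by signal over background.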
